A study of Homo sapiens with 4 samples.

Results

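The aryl hydrocarbon receptor (AHR) and genes that work with it or answer to it were followed in MDA-MB-231, a human cell line of triple-negative breast cancer. The 6 genes were AHR, its partner ARNT, its repressor AHRR and the targets TIPARP, CYP1A1 and CYP1B1. They were picked by name with their YW-LF against DMSO values in these libraries already known, out of 20263 genes in the count table. All 6 passed the filter on low counts that kept 13816 genes. Because that same contrast guided the choice, their values are a description without a test.

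One group of 2 libraries came from cells given YW-LF, which the series title calls a ribociclib derivative (ribociclib is a drug against CDK4 and CDK6, kinases of the cell cycle). The other group of 2 came from cells given DMSO, the solvent. Treatment lasted 24 h in medium with 10% fetal bovine serum, and the sources used here give no dose. Both groups are the same cell line with no genetic change named in the labels, so the comparison is limited to 1 line. Nothing in the labels says that replicates were separate cultures, and p-values therefore cover a spread between libraries that may be technical only.

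AHR is a transcription factor of the bHLH-PAS family that waits in the cytoplasm in a complex with the chaperone HSP90. When a ligand such as dioxin, a planar drug or a tryptophan metabolite binds, it enters the nucleus, pairs with ARNT and binds DNA at the xenobiotic response element, whose core reads GCGTG. Among its best known targets are cytochrome P450 enzymes that oxidise the ligand, and TIPARP and AHRR, which feed back to restrain the receptor.

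Total counts were 34774542 to 40218240 per library, so that 1 count was worth 0.0199 to 0.0324 CPM (read counts scaled to a common library total with TMM factors). The share of mitochondrially encoded genes was 3.14% and 6.58% in YW-LF replicates 1 and 2, against 8.68% and 21.7% in DMSO replicates 1 and 2. Without those genes the fitted values of the 6 genes moved by at most 0.008 on the log2 scale. The YW-LF libraries resembled each other less than the DMSO libraries did: over 13816 genes, the SD of the log2 ratio of the replicates was 1.24 in YW-LF and 0.61 in DMSO. Of the markers of this line, VIM had 2122 and 3158 CPM in YW-LF, against 3321 and 4154 CPM in DMSO, and CD44 had 400.2 and 400.4 CPM in YW-LF, against 449.8 and 569 CPM in DMSO. KRT18 had 70.3 and 152 CPM in YW-LF, against 219 and 304 CPM in DMSO, and EGFR had 392 and 129 CPM in YW-LF, against 869.6 and 1057 CPM in DMSO. These 4 markers were thus lower in both YW-LF libraries on the TMM scale, and the part of this in the results was not tested. With library size as the only scaling, the CD44 groups overlapped. Of all genes tested, 27.8% lay below both DMSO libraries in both YW-LF libraries on the TMM scale. Of the markers that the line lacks or holds at low level, ERBB2 stood at 30.2 to 71.9 CPM over the 4 libraries, EPCAM had 5.53 and 7.06 CPM in YW-LF, against 8.81 and 9.35 CPM in DMSO, and PGR reached 1.73 CPM, ESR1 0.657 CPM and CDH1 0.259 CPM. Of the other cell types' markers, CD3E and COL1A2 had 0 counts in every library, PTPRC, CD14, PECAM1, VWF and PDGFRB stayed at 2.67 CPM or less, and COL1A1 reached 7.92 CPM. Of these, CD14, PECAM1, PDGFRB and COL1A1 were lower in both YW-LF libraries than in both DMSO libraries on the TMM scale. With library size as the only scaling, CD14, PDGFRB and COL1A1 overlapped between the groups. COL1A1, for example, held 329 and 15 counts in YW-LF, against 261 and 265 counts in DMSO, and CD14 held at most 20 counts in a library. ALB had 1.17 and 1.78 CPM in YW-LF, against 0.0534 and 0.179 CPM in DMSO, and its part in the results was not tested either.

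TIPARP, CYP1B1, CYP1A1, AHRR and AHR were higher in both YW-LF libraries than in both DMSO libraries, and ARNT was not. Among all genes tested, 28.0% lay above DMSO in this way and 27.8% below, and nothing is read from 5 of 6 against that share because the contrast guided the choice. The fitted log2 fold changes of the 6 genes ran from -0.01 (ARNT) to 4.31 (TIPARP), with a median of 1.56, beside a median of 0.06 over all genes tested. In bulk libraries, a change in the cells present and a change in RNA per cell cannot be told apart.

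**Figure D1:**
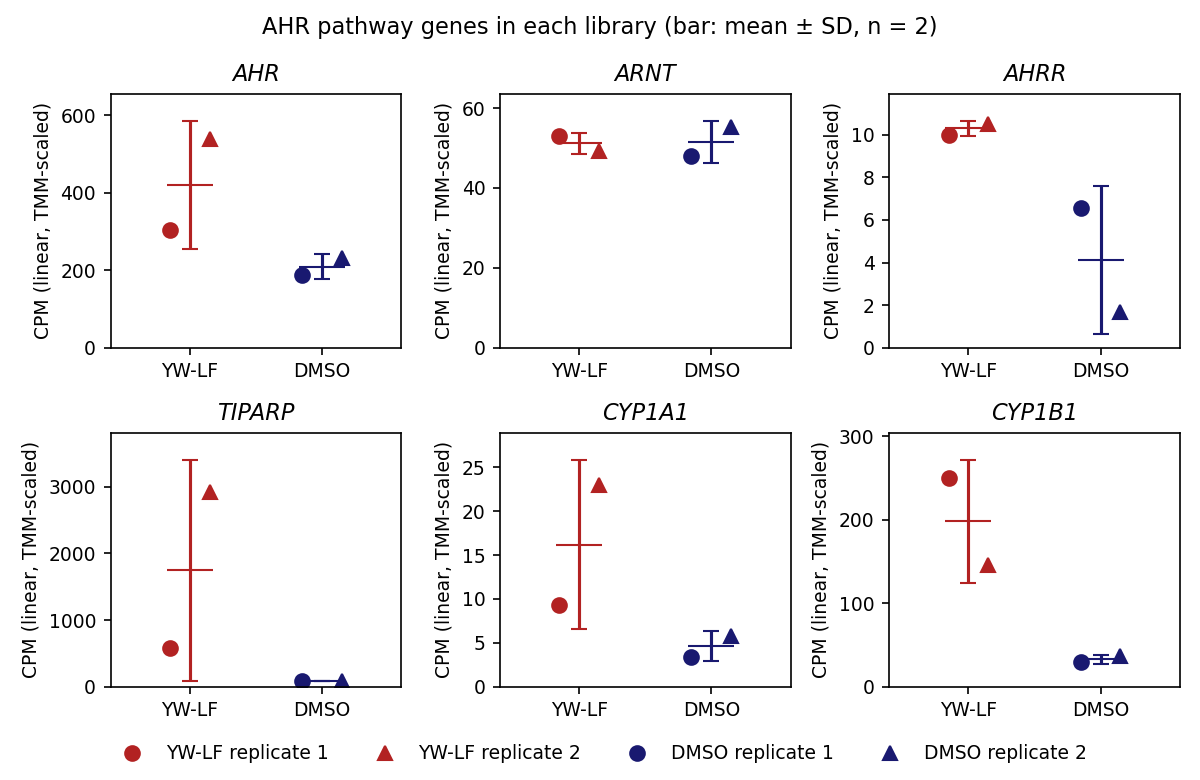
Level of each gene in CPM (linear axes from 0, a scale of its own in each panel) in the YW-LF libraries (left) and the DMSO libraries (right); circles are replicate 1, triangles replicate 2, and bars show the mean ± SD (n = 2). TIPARP stands at 575 and 2921 CPM in YW-LF, against 90.1 and 86.2 CPM in DMSO, and ARNT lies near 50 CPM in both groups.

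AHR, the receptor itself, was higher in YW-LF by a margin that depended on the library. AHR (ENSG00000106546, chromosome 7, 16916359 to 17346152, plus strand, GENCODE 29 on GRCh38) had 304 and 537 CPM in YW-LF replicates 1 and 2, against 187 and 232 CPM in DMSO replicates 1 and 2. The groups did not overlap, but YW-LF replicate 1 stood only 1.31-fold above DMSO replicate 2, while YW-LF replicate 2 stood 2.87-fold above DMSO replicate 1. The mean was 420.4 ± 165 CPM in YW-LF and 209 ± 31.6 CPM in DMSO (SD, n = 2 each), and the fitted log2 fold change was 1.01 (SE 0.46). Omitting YW-LF replicate 2 gave 0.53 and omitting YW-LF replicate 1 gave 1.36. The annotated gene shares 2373 exon bases on the same strand with AC019117.2, which held at most 65 counts in a library. It also shares 270 exon bases on the opposite strand with AC073332.1, which is not in the count table. The sources used here do not say how reads in shared exons were counted.

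ARNT, the partner that AHR needs to bind DNA and that also serves the hypoxia factors, showed no such difference. ARNT (ENSG00000143437, chromosome 1, 150809705 to 150876768, minus strand) had 53.0 and 49.3 CPM in YW-LF, against 47.9 and 55.3 CPM in DMSO. The groups overlapped, with a DMSO library at each end of the range. Means were 51.2 ± 2.59 CPM in YW-LF and 51.6 ± 5.23 CPM in DMSO (SD, n = 2 each), with a fitted log2 fold change of -0.01 (SE 0.34). Its sign turned with the scaling (0.10 with library size alone).

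AHRR, which resembles AHR, pairs with ARNT and represses AHR targets, had the lowest level per length of the 6 genes. AHRR (ENSG00000063438, chromosome 5, 304176 to 438291, plus strand) had 10.0 and 10.5 CPM in YW-LF, against 6.57 and 1.67 CPM in DMSO. The treated libraries were nearly equal and the DMSO libraries were apart: DMSO replicate 1 stood 3.93-fold above DMSO replicate 2. Those libraries held 246 and 56 counts, with exact 95% Poisson intervals of 216 to 279 and 42.3 to 72.7 counts that cover counting error only. The mean was 10.3 ± 0.361 CPM in YW-LF and 4.12 ± 3.46 CPM in DMSO (SD, n = 2 each), and the fitted log2 fold change of 1.31 (SE 0.71) became 2.62 without DMSO replicate 1 and 0.63 without DMSO replicate 2. AHRR shares 244 exon bases on the same strand with PDCD6, which held 1210 to 2328 counts per library, so reads from that stretch are of uncertain origin.

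Promoter sequence is printed for the repressor and for the targets, because these are the genes that AHR is known to act on through the GCGTG core. Promoters in the RefSeq table (GRCh38.p14) matched 5 of the 6 genes, with 8 start sites; CYP1B1 had no entry. In the 250 bases before each start, the core was sought as GCGTG on both strands, and 4 of 8 windows held it, beside 32.2% of 35116 windows of the same length. The longer form TNGCGTG, which contains the core, was in 1 of 8 windows, beside 4.52% of all windows. The AHRR windows chr5:321464-321713 and chr5:322360-322609 (plus strand) follow, with each core in capitals.
AHRR start 1: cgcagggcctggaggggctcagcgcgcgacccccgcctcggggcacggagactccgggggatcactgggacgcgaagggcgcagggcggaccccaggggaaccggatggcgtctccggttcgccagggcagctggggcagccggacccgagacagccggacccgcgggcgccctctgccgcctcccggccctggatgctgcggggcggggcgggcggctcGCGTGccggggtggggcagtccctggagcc
AHRR start 2: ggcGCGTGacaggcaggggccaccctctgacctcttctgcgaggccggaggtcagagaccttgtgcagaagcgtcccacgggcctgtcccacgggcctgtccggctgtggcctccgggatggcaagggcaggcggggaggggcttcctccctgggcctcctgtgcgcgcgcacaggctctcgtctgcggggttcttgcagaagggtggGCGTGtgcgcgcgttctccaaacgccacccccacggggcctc
The first AHRR window holds 1 core, which is also the match to the longer form, and the second holds 2. The AHR and ARNT windows hold none. A match of letters does not show that the receptor binds there.

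TIPARP, a mono-ADP-ribosyltransferase (PARP7) that modifies AHR and lowers its activity, had the largest difference of the 6 genes. TIPARP (ENSG00000163659, chromosome 3, 156673235 to 156706770, plus strand) had 575 and 2921 CPM in YW-LF replicates 1 and 2, against 90.1 and 86.2 CPM in DMSO replicates 1 and 2. The DMSO libraries were nearly equal, and the lower YW-LF library was still 6.39-fold above the higher DMSO library. The YW-LF libraries differed 5.08-fold from each other. The mean was 1748 ± 1659 CPM in YW-LF and 88.1 ± 2.75 CPM in DMSO (SD, n = 2 each), a fitted log2 fold change of 4.31 (SE 0.89). The value was 2.70 with YW-LF replicate 2 omitted and 5.05 with YW-LF replicate 1 omitted.

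By CPM per kilobase of annotated exon, TIPARP held place 198 from the top of 20224 genes in YW-LF replicate 1 and place 74 in YW-LF replicate 2, against places 2350 and 2503 in DMSO replicates 1 and 2. Its 90254 counts were 0.245% of YW-LF replicate 2 (exact 95% binomial interval 0.243% to 0.246%), and its 28920 counts were 0.0719% of YW-LF replicate 1 (0.0711% to 0.0727%). In DMSO the shares were 0.0097% (0.00938% to 0.01%) and 0.00764% (0.00736% to 0.00792%). These intervals cover counting error only. By fitted log2 fold change it stood at place 121 from the top of 13816 genes. Of its 3 RefSeq start sites, the window of the most upstream one, chr3:156674340-156674589 (plus strand), is the only one with the core. It is shown with the core in capitals, both times as CACGC because it lies on the opposite strand.
TIPARP start 1: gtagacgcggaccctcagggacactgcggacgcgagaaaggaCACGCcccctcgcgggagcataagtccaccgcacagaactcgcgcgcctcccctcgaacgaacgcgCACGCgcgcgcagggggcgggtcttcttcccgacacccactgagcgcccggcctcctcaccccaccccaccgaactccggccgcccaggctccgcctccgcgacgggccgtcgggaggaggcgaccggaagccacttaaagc

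CYP1A1 and CYP1B1 encode the cytochrome P450 enzymes most often used to read out AHR activity; both oxidise polycyclic hydrocarbons and oestradiol. CYP1B1 (ENSG00000138061, chromosome 2, 38066973 to 38109902, minus strand) had 250.3 and 146 CPM in YW-LF, against 29.3 and 36.9 CPM in DMSO. Every YW-LF library lay at least 3.97-fold above every DMSO library. The mean was 198 ± 73.6 CPM in YW-LF and 33.1 ± 5.38 CPM in DMSO (SD, n = 2 each), with a fitted log2 fold change of 2.58 (SE 0.44). That SE was smaller than those of the other 4 genes that stood above DMSO, and leaving out any 1 library moved the value only between 2.14 and 2.91. CYP1B1 shares 96 exon bases with RMDN2 on the opposite strand, which held 45 to 155 counts per library. It also shares 678 exon bases with CYP1B1-AS1 on the opposite strand and 69 with RMDN2-AS1 on the same strand. Neither of these antisense genes is in the count table. The sources used here do not say whether reads were counted by strand, so reads from these stretches are of uncertain origin.

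CYP1A1 (ENSG00000140465, chromosome 15, 74719542 to 74725610, minus strand) had 9.33 and 23.0 CPM in YW-LF, against 3.39 and 5.83 CPM in DMSO. The groups did not overlap, and YW-LF replicate 2 stood apart above the rest. These levels rest on 469 and 711 counts in YW-LF, against 127 and 195 counts in DMSO. The mean was 16.2 ± 9.67 CPM in YW-LF and 4.61 ± 1.72 CPM in DMSO (SD, n = 2 each), and the fitted log2 fold change was 1.81 (SE 0.60). Omitting 1 library gave 1.01 (YW-LF replicate 2), 2.32 (YW-LF replicate 1), 1.48 (DMSO replicate 1) or 2.24 (DMSO replicate 2). The 250 bases before the RefSeq start, chr15:74725529-74725778 (minus strand), hold 1 core, in capitals. The enhancer elements through which AHR is best known to act on this gene lie further upstream than this window.
CYP1A1: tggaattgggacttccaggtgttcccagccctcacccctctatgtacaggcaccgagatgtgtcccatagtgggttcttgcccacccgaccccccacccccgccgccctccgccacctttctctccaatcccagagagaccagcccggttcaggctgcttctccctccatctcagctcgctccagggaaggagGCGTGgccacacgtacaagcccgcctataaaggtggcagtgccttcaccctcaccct

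The plot of fitted values among all genes places 5 of the 6 genes on the right-hand side. A fitted log2 fold change of at least 1, which 5 of the 6 genes reached, was also reached by 2372 of 13816 genes (17.2%). From the top, TIPARP was at place 121, CYP1B1 at 407, CYP1A1 at 895, AHRR at 1595, AHR at 2345 and ARNT at 7321.

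**Figure D2:**
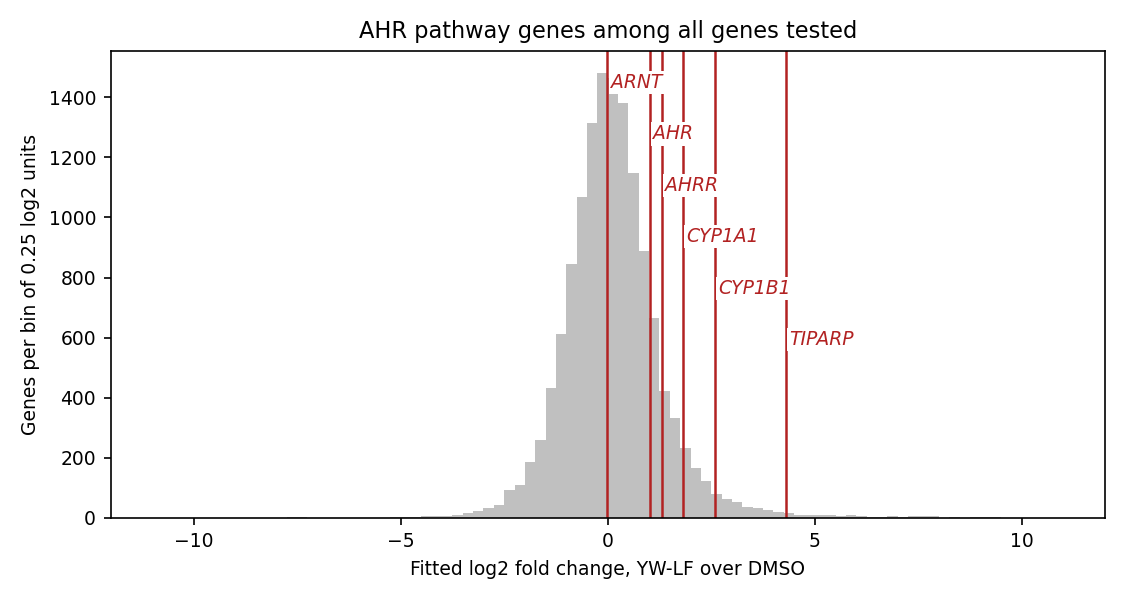
Histogram of the fitted log2 fold change (YW-LF over DMSO) of all 13816 genes tested, with the 6 AHR pathway genes as red lines. ARNT lies at the centre (-0.01), AHR, AHRR and CYP1A1 between 1.01 and 1.81, CYP1B1 at 2.58 and TIPARP at 4.31.

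The order of the YW-LF replicates was not the same for all 6 genes. TIPARP, CYP1A1 and AHR were higher in YW-LF replicate 2 than in YW-LF replicate 1, by 2.34, 1.30 and 0.82 on the log2 scale of CPM. CYP1B1 went the other way, at -0.78, and AHRR (0.07) and ARNT (-0.10) barely differed. The differences of TIPARP and CYP1A1 exceed the SD of 1.24 that the YW-LF replicates show over all genes, and the other 4 do not.

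The genes also stood in different ratios to each other within a library, on the scale of CPM per kilobase. CYP1B1 stood 15.3-fold above CYP1A1 in YW-LF replicate 1 and 3.63-fold in YW-LF replicate 2, against 4.93-fold and 3.61-fold in DMSO replicates 1 and 2. TIPARP stood 3.03-fold and 8.71-fold above AHR in YW-LF. In DMSO TIPARP was below AHR, at ratios of 0.771 and 0.596. AHR stood 4.62-fold and 8.78-fold above ARNT in YW-LF, against 3.15-fold and 3.38-fold in DMSO. The repressor AHRR was at most 0.037 of AHR in any library.

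The order of the genes by level per length differed between the groups. In YW-LF the mean CPM per kilobase was 346 ± 329 for TIPARP, 52.0 ± 20.4 for AHR, 33.0 ± 12.2 for CYP1B1, 7.85 ± 0.397 for ARNT, 4.71 ± 2.82 for CYP1A1 and 1.34 ± 0.047 for AHRR (SD, n = 2). Of the neighbours in this order, AHR and CYP1B1 overlapped between libraries (37.6 and 66.5 against 41.6 and 24.3 CPM per kilobase in replicates 1 and 2) and the others did not. In DMSO the order was AHR at 25.9 ± 3.91, TIPARP at 17.5 ± 0.545, ARNT at 7.91 ± 0.803, CYP1B1 at 5.50 ± 0.895, CYP1A1 at 1.34 ± 0.501 and AHRR at 0.537 ± 0.451 CPM per kilobase (SD, n = 2), and no neighbours overlapped. CYP1B1 thus stood above ARNT in both YW-LF libraries and below it in both DMSO libraries.

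**Figure D3:**
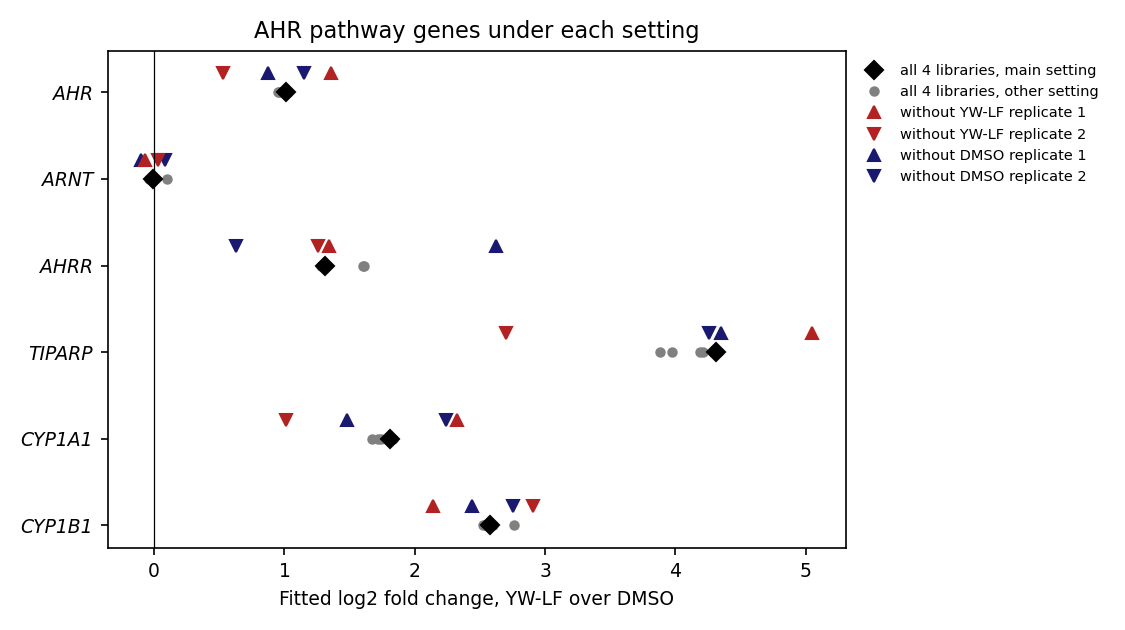
Fitted log2 fold change (YW-LF over DMSO) of each gene with all 4 libraries in the main setting (black diamond) and other settings (grey), and with 1 library left out (red for a YW-LF library, dark blue for a DMSO library). TIPARP, CYP1A1 and AHR move most when a YW-LF library is left out (TIPARP 2.70 to 5.05) and AHRR when a DMSO library is (0.63 to 2.62), while ARNT stays near 0.

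The plot of fitted values under each setting shows which library each value leaned on. With all 4 libraries, the fitted value of TIPARP stayed between 3.88 and 4.33, that of CYP1B1 between 2.52 and 2.76, that of CYP1A1 between 1.67 and 1.83, that of AHRR between 1.28 and 1.61 and that of AHR between 0.95 and 1.03 over the scalings, filters and tools tried.

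Beyond the 6 genes, 60 further genes of the pathway were listed by role, of which 50 passed the count filter. These lists too were chosen with earlier results of these data known. Nothing is therefore read from their counts against the shares over all genes. The quasi-likelihood test of edgeR, adjusted over the whole table by Benjamini-Hochberg, called 0 of these 50 genes higher and 0 lower at an adjusted p under 0.05, as it called 0 of 13816 genes in either direction (0%). At an unadjusted p under 0.05, 9 of the 50 were higher and 4 lower. Over all genes tested the same rule gave 1585 higher (11.5%) and 1245 lower (9.01%), a split that became 1489 and 755 with library size as the only scaling. DESeq2 called 9 of the 50 higher and 2 lower, beside 5.78% of all genes higher and 4.26% lower, and limma-voom called 0. The groups did not overlap in 31 of the 50, with YW-LF higher in 15 and lower in 16. That is 62.0%, beside 55.8% of all genes tested, and the counts for single lists have the same 28.0% above and 27.8% below as their background. The 50 had a median log2 fold change of -0.09. When 1 library was left out, edgeR called 12 higher and 13 lower of 51 (YW-LF replicate 1 omitted), 10 and 5 of 53 (YW-LF replicate 2 omitted), and 2 and 0 of 54 (DMSO replicate 1 or 2 omitted). Such fits take their spread from 1 remaining pair of replicates.

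For the receptor complex, neither edgeR nor DESeq2 called a gene. Of 8 genes for chaperones and other proteins that hold AHR, move it or mark it for degradation, both treated libraries exceeded both DMSO libraries in 0 and were below them in 4, with a median log2 fold change of -0.49. The co-chaperone gene PTGES3 (p23) had 185 and 126 CPM in YW-LF, against 248 and 264 CPM in DMSO. UBE2L3, a ubiquitin-conjugating enzyme, had 95.3 and 129.9 CPM in YW-LF, against 165 and 215 CPM in DMSO. CUL4B, the scaffold of a ubiquitin ligase that AHR can join, overlapped between the groups, at 96.8 and 46.7 CPM in YW-LF and 118 and 91.2 CPM in DMSO.

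Relatives of AHR and ARNT in the bHLH-PAS family and the clock went both ways. Of 10, both treated libraries exceeded both DMSO libraries in 4 and were below them in 2, and the median log2 fold change was 0.42. PER1, a clock repressor, had 101 and 1357 CPM in YW-LF, against 10.8 and 17.0 CPM in DMSO (5.71 on the log2 scale, SE 1.26, adjusted p = 0.121 in edgeR and 4.5e-10 in DESeq2). Like TIPARP, it was far higher in YW-LF replicate 2 than in YW-LF replicate 1. The clock activator BMAL1 had 25.1 and 32.3 CPM in YW-LF, against 8.79 and 6.96 CPM in DMSO (1.86, SE 0.41, adjusted p = 0.121 in edgeR and 0.005 in DESeq2). Its partner CLOCK had 45.4 and 29 CPM in YW-LF, against 90.8 and 79.1 CPM in DMSO (-1.19, SE 0.39, edgeR adjusted p = 0.176). ARNT2, which can take the place of ARNT, had 10.7 and 4.14 CPM in YW-LF, against 19.2 and 28.0 CPM in DMSO (-1.67, SE 0.56, adjusted p = 0.186 in edgeR and 0.046 in DESeq2).

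Of 11 coregulators that AHR and ARNT recruit, 6 were below DMSO in both libraries and 2 above. Their median log2 fold change was -0.47. As over all genes, 0 of them passed in edgeR. DESeq2 called 1 of them lower, beside 4.26% of all genes, and 0 higher. The corepressor gene NCOR1 had 171 and 117 CPM in YW-LF, against 255 and 238 CPM in DMSO. CREBBP, an acetyltransferase, had 150.2 and 144 CPM in YW-LF, against 188 and 344 CPM in DMSO. NRIP1 (RIP140), a coregulator of nuclear receptors, lay on the other side, with 41.8 and 31.0 CPM in YW-LF, against 24.8 and 18.2 CPM in DMSO (0.76, SE 0.39).

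Tryptophan metabolites are natural AHR ligands, and 6 of 11 genes for their synthesis and breakdown were measured. YW-LF was above DMSO without overlap in 3 of the 6 and below in 0, beside 28.0% above and 27.8% below over all genes tested. Nothing is read from this count, because the list was chosen with earlier results of these data known. The median log2 fold change of the 6 was 1.0. KYNU (kynureninase) had 63.9 and 86.2 CPM in YW-LF, against 23.2 and 16.0 CPM in DMSO (1.93 on the log2 scale, SE 0.40, adjusted p = 0.121 in edgeR and 0.0023 in DESeq2). KYAT3, an aminotransferase that makes kynurenic acid, had 87.4 and 79.3 CPM in YW-LF, against 37.3 and 29.3 CPM in DMSO (1.32, SE 0.35, adjusted p = 0.138 in edgeR and 0.046 in DESeq2). Both genes break down or convert kynurenine, and neither makes it from tryptophan.

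TDO2, IL4I1, IDO1 and IDO2, whose enzymes act directly on tryptophan or aromatic amino acids, were at low levels. TDO2 had 2.77 and 0.842 CPM in YW-LF, against 1.07 and 1.05 CPM in DMSO, and the groups overlapped. IL4I1, an amino acid oxidase, had 0.298 and 0.712 CPM in YW-LF, against 0.187 and 0.239 CPM in DMSO. These values rest on 15 and 22 counts in YW-LF, against 7 and 8 counts in DMSO. IDO1 held 15 and 0 counts in YW-LF replicates 1 and 2 and 0 counts in both DMSO libraries. IDO2 had 0 counts in all 4 libraries, which at 3 counts per library allows 0.0597 to 0.0971 CPM.

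Further target genes had no common direction. Of 15 measured, 6 were higher in both treated libraries than in both DMSO libraries and 4 were lower, and their median log2 fold change was 0.02. SERPINB2 (the plasminogen activator inhibitor PAI-2) had 46.2 and 58.0 CPM in YW-LF, against 3.26 and 4.03 CPM in DMSO (3.84, SE 0.41, adjusted p = 0.117 in edgeR and 1.1e-11 in DESeq2). STC2, the secreted protein stanniocalcin 2, had 5.65 and 14.1 CPM in YW-LF, against 1.39 and 1.58 CPM in DMSO (2.73, SE 0.66, adjusted p = 0.126 in edgeR and 0.0012 in DESeq2). EREG, the EGF receptor ligand epiregulin, had 100.2 and 55.9 CPM in YW-LF, against 20.6 and 25.4 CPM in DMSO (1.76, SE 0.43, adjusted p = 0.126 in edgeR and 0.009 in DESeq2). CCNG2, the atypical cyclin G2, had 192 and 92.1 CPM in YW-LF, against 50.7 and 39.5 CPM in DMSO (1.65, SE 0.47, adjusted p = 0.148 in edgeR and 0.021 in DESeq2).

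The other named values of this list differ among themselves. NFE2L2, the stress regulator NRF2, had 198 and 203 CPM in YW-LF, against 97.9 and 98.1 CPM in DMSO (1.03, SE 0.35, edgeR adjusted p = 0.190). NQO1, a quinone reductase, had 136 and 299 CPM in YW-LF, against 231 and 197 CPM in DMSO, with the DMSO libraries inside the YW-LF range (0.02, SE 0.49). ALDH3A1, an aldehyde dehydrogenase, had 2.25 and 2.52 CPM in YW-LF, against 5.07 and 5.62 CPM in DMSO (-1.16, SE 0.55, edgeR adjusted p = 0.288). CYP1A2, the liver relative of CYP1A1, held 3 and 0 counts in YW-LF and 0 in DMSO. UGT1A1, UGT1A6, GSTA1 and GSTA2 had 0 counts in every library; the UGT1A genes share exons and the GSTA genes are near copies, so counting rules can empty them. The genes of this paragraph fall outside the naming rule and were picked with their values in view, so they stand for no group.

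**Figure D4:**
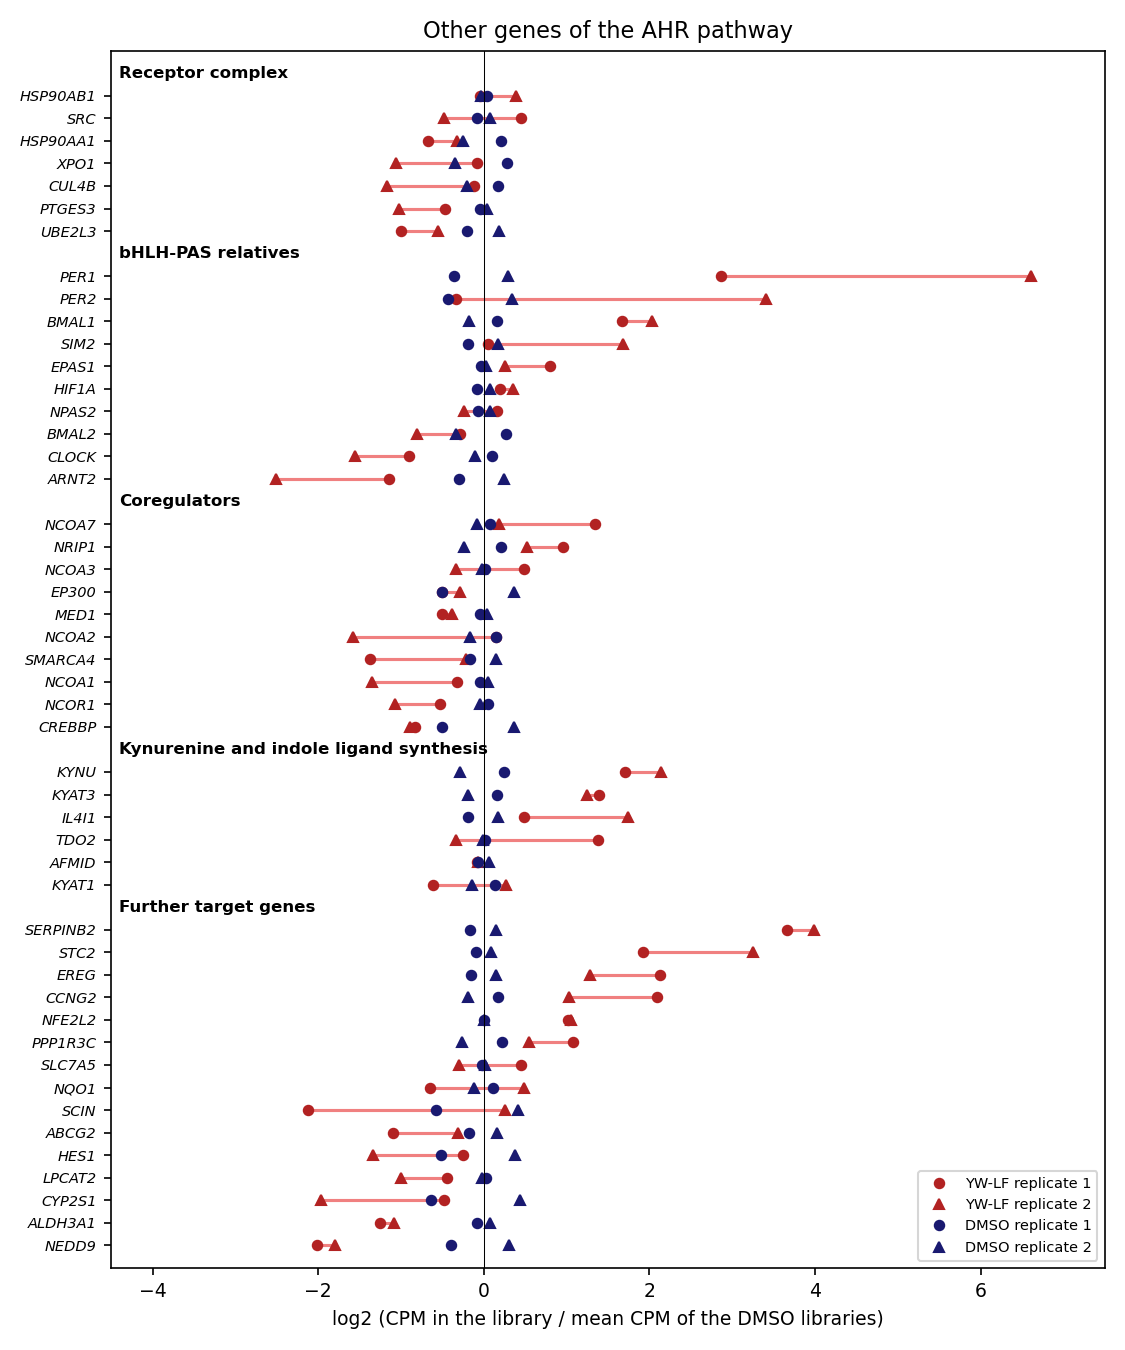
log2 ratio of the CPM in each library to the mean CPM of the DMSO libraries for 48 of the 50 other pathway genes that passed the count filter, grouped by role; YW-LF libraries are red, DMSO libraries dark blue, circles replicate 1 and triangles replicate 2. PER1 and SERPINB2 lie far to the right, ARNT2 and NEDD9 to the left, and the YW-LF libraries of the receptor complex genes lie at or left of 0 apart from HSP90AB1 and SRC.

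For each of the 6 genes, the 2 genes with the most similar profile were sought among 10737 genes with a mean of at least 5 CPM, by the Euclidean distance of centred log2 CPM over the 4 libraries. For TIPARP these were CSRNP1 (distance 0.21), with 74.2 and 334 CPM in YW-LF and 11.9 and 12 CPM in DMSO, and TMEM225B (0.26). For CYP1B1 they were the transcriptional repressor gene NFIL3 (0.28) and the stress-induced SESN2 (0.31). PEX16 (0.10) and SARM1 (0.16) lay nearest to CYP1A1, and RNF146 (0.17) and ZNF440 (0.45) to AHRR. CNBP (0.03) and MTF1 (0.08) lay nearest to AHR, and HDHD2 and LMTK2 (0.04 each) to ARNT. Within a distance of 0.5 lay 626 genes for AHR and 1542 for ARNT. The same distance held 4 genes for TIPARP, 3 for AHRR, 11 for CYP1B1 and 42 for CYP1A1. Distance grows with the size of the differences, so these counts do not show which profiles are rare. By shape alone, 1093 genes had a Pearson correlation over 0.95 with TIPARP, 842 with AHR and 628 with CYP1A1. For CYP1B1 there were 441 such genes, for AHRR 167 and for ARNT 38.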

How the data were processed

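The deposited values are raw counts of reads per gene, judged by their whole numbers and unequal totals. The sources used here give no aligner, counting program or strand setting. GRCm38 and mm10, both mouse builds, stand in the submitters' processing notes, although all 20263 identifiers are human Ensembl genes. Symbols matched 20148 identifiers; the other genes held 0.102% of counts. A second table held the same DMSO values (40526 of 40526 identical), and 2 columns that match no label were not used.

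CPM values are scaled by the trimmed mean of M-values (TMM); log2 CPM used a prior count of 2. EdgeR 4.0.16 in R 4.3.3 (filterByExpr, quasi-likelihood F-test without covariates, Benjamini-Hochberg threshold 0.05) was fitted to all 4 libraries. The SE is the log2 fold change divided by the square root of F. Exon lengths and coordinates are from GENCODE 29 (GRCh38), matched by identifier. Tests were checked on simulated data that had the same dispersion in all genes and both groups. The simulation therefore does not mirror the wider spread of the YW-LF libraries. Replicates within a group were not copies of each other: chi-square over degrees of freedom between replicates was 570 in YW-LF and 246 in DMSO.

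The 6 genes and the wider lists were chosen with earlier results of these data known. Named from the wider lists were the 4 measured genes of lowest unadjusted p in each of 5 lists; 2 genes of these lists are counted but not reported here. Alternatives were DESeq2 1.42.0, limma-voom (limma 3.58.1), other scalings and count filters, a 0.01 threshold, a block for the replicate number, leaving out each library and, chosen after seeing the data, removal of mitochondrially encoded genes.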

Additional observations from a re-analysis of the deposited data

How the results depend on the processing

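With all 4 libraries, 5 of the 6 genes (all but ARNT) kept both YW-LF libraries above both DMSO libraries under every scaling and filter tried. Fitted values of the 6 genes stayed within the replicate SD of the main value, with ARNT at -0.04 to 0.10. With 1 library left out they ran from 0.53 to 1.36 for AHR, -0.10 to 0.08 for ARNT, 0.63 to 2.62 for AHRR, 2.70 to 5.05 for TIPARP, 1.01 to 2.32 for CYP1A1 and 2.14 to 2.91 for CYP1B1. Counts of calls depended on the test. Against 0 genes in the main edgeR fit, DESeq2 found 835 higher and 616 lower (in the wider list, 9 and 2), and edgeR without a count filter 155 and 120 (2 and 1). A block for the replicate number (replicate block) gave 186 and 145 (2 and 1). No label links a replicate number to a batch. The deviations of same-numbered libraries correlated at 0.037 across genes. With 2 libraries per group, this value cannot decide whether same-numbered libraries shared a batch. Leaving out 1 library gave 46 to 2963 genes higher and 16 to 2919 lower, and 2 to 12 higher and 0 to 13 lower in the wider list. The cause of these changes was not tested. Other scalings, the stricter filter, limma-voom, the threshold of 0.01 and removal of mitochondrial genes gave 0 calls. Library size as the only scaling put the median of all genes at 0.16 (log2), against 0.06 with TMM, and the wider list then had 12 genes above and 11 below DMSO in both libraries. The nearest-profile genes were not stable: with Pearson correlation in place of distance, 1 of 2 was shared for AHR and 0 of 2 for each other gene. Depth limits AHRR and CYP1A1 most, at 56 and 127 counts in their lowest library.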
